A study of Mus musculus with 12 samples.

Results

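Krt5, Krt14, Krt15, Krt17, Krt19, Krt8 and Krt18 are 7 keratin genes that between them cover the basal layer of stratified epithelium and the simple epithelia. They were taken by symbol from a table of read counts for 23420 genes, 52 of which are keratins by symbol, and all 7 were present. The table describes 12 RNA libraries from the hard palate (rugae 1 to 8) of 6 FVB mice, with 1 GFP-HI and 1 GFP-LO library per mouse. Every mouse carried 1 copy each of K5-tTA and tetO-H2B-GFP. In this model a keratin 5 promoter drives a transactivator that switches on a green histone, so only cells in which that promoter is active can be labelled. Doxycycline stops label production, and after a chase of 14 days each division has thinned the label further. The GFP-HI group holds label-retaining cells, which the submitters call infrequently dividing, and the GFP-LO group holds cells that lost label, called frequently dividing. Cells of both groups were gated on CD49f, the product of Itga6, and each RNA came from 200 to 1000 cells. Mice B1M, B3M, B4M, B5M and B7M were 49 days old and B7F was 71 days old.

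Keratin filaments are built from pairs of a type I and a type II chain. In basal keratinocytes the pair is Krt14 with Krt5, and Krt15 is a further type I partner that is known as a marker of hair follicle stem cells. Krt17 is a type I keratin of skin appendages that keratinocytes switch on after injury. Krt8 and Krt18 are the pair of simple epithelia and also of Merkel cells, the touch receptors found in skin and palatal rugae. Krt19, the smallest type I keratin, lacks a tail domain and is found in simple epithelia, ducts and some basal cells.

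Library totals ran from 6678444 to 10547665 counts, of which the ribosomal precursor Rn45s took 31.5% to 59.8%. In B1M and B3M the GFP-HI libraries held counts for 12312 and 12810 genes, against 13101 to 19023 in all other libraries. Levels are given in CPM, counts scaled to library size, after correction of each library by trimmed mean of M-values. All 10 basal keratinocyte markers that are not keratins were detected in all 12 libraries, and none passed the test between the fractions (adjusted p from edgeR's quasi-likelihood test 0.77 or higher). They include Itga6 itself (log2 fold change −0.12, adjusted p = 0.77), Itgb4, its partner in hemidesmosomes (−0.08), Col17a1, a collagen of the same junctions (−0.07), and Dst, their keratin linker (−0.10). Of the 10, 3 had a positive and 7 a negative value, with a median of −0.04. Among all 11719 tested genes 6218 had a negative value, with a median of −0.02. Their summed level was 5016 to 6557 CPM across GFP-HI, against 5307 to 7077 CPM across GFP-LO.

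The 7 genes lie in 2 keratin clusters (mm10). Krt14, Krt15, Krt17 and Krt19 sit within 129231 bases of chromosome 11, on the minus strand, at 100203162 to 100207510, 100131759 to 100135949, 100256217 to 100260989 and 100140811 to 100145919. Krt5 (101707070 to 101712891) and Krt8 (101996711 to 102004342) lie on the minus strand of chromosome 15. Krt18, the 1 type I gene of the 7 outside the chromosome 11 cluster, lies on the plus strand of chromosome 15 at 102028216 to 102032026, so that it and Krt8 start 23874 bases apart and point away from each other. The annotation in the table gives 8 exons to Krt14, Krt15 and Krt17, 9 to Krt5 and Krt8, 7 to Krt18 and 6 to Krt19. No other gene of the table overlaps any of them.

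Keratins share sequence, which bears on how far reads can be told apart. Of the 50-base words in the GENCODE transcripts (release M21), 13.9% of those of Krt14 and 12.2% of those of Krt5 also occur in another gene. For Krt14 the partners are Krt16 and Krt17, and for Krt5 the main partner is Krt6a, an abundant keratin of this tissue. The share is 4.0% for Krt17, 0.72% for Krt18, 0.64% for Krt15 and 0% for Krt19. Krt8 stands apart with 29.7%, and 26.9% of its words are shared with Krt8-ps, a processed pseudogene that has no row in the count table. How the submitters treated reads that match several places is not given in the sources used here, so counts of Krt8, Krt14 and Krt5 are uncertain to that extent. The longest identical coding stretches of Krt14 are shown because reads that fall inside them cannot be assigned to 1 gene. Every base shown is the same in both genes, and the stretches lie at or reach into the ends of the rod domain, which are the most conserved parts of keratins.
Krt14 and Krt16, 134 bases: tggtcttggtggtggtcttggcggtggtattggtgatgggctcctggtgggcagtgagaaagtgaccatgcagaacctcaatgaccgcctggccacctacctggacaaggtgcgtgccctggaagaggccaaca
Krt14 and Krt17, 71 bases: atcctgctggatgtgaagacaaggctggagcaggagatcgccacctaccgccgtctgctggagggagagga
They cover bases 306 to 439 and 1216 to 1286 of the 1452 coding bases of Krt14.

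Per kilobase of exon, which allows genes to be compared, the order was Krt14, Krt5, Krt15, Krt17 and then the 3 simple-epithelial genes. Krt14 averaged 6143 ± 1743 CPM per kb in GFP-HI and 6613 ± 1129 CPM per kb in GFP-LO, and Krt5 2372 ± 319 and 2661 ± 418 CPM per kb (SD, n = 6 each). Krt15 averaged 325 ± 75.9 CPM per kb in GFP-HI and 272 ± 103 CPM per kb in GFP-LO. Krt17 averaged 168 ± 58.8 and 230 ± 148 CPM per kb in the same order of fractions. Krt18, Krt19 and Krt8 averaged 5.25, 4.48 and 4.23 CPM per kb in GFP-HI and 4.04, 2.63 and 1.60 CPM per kb in GFP-LO. The steps from Krt14 to Krt5 and from Krt5 to Krt15 showed no overlap of ranges in either fraction. Krt15 was above Krt17 in all libraries but the GFP-LO library of B5M. The ranges of Krt18, Krt19 and Krt8 overlapped in both fractions, so these 3 neighbours are not ordered beyond their spread. Krt17, the next above them, did not overlap with Krt18 in either fraction.

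**Figure D1:**
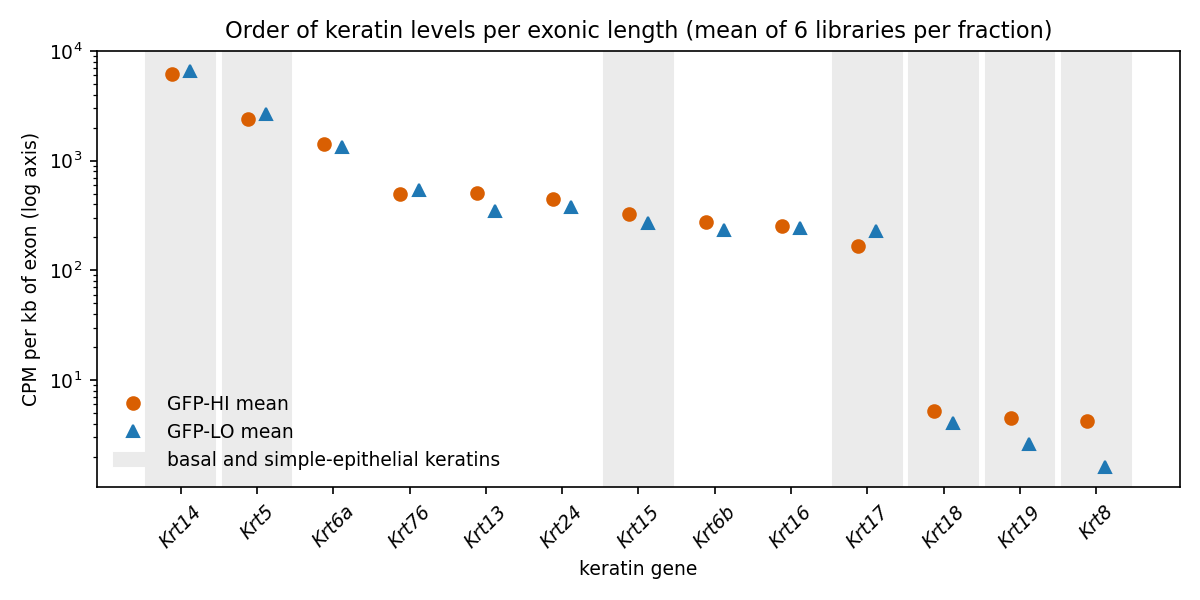
Mean level of keratin genes in CPM per kilobase of exon (log axis), GFP-HI as circles and GFP-LO as triangles (6 libraries each), for the 7 basal and simple-epithelial keratins (shaded) and the 6 most abundant other keratins. Krt14 and Krt5 lead the order, and Krt18, Krt19 and Krt8 lie at 1.60 to 5.25 CPM per kb.

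None of the 7 keratins passed the test between GFP-HI and GFP-LO at an adjusted p under 0.05 over all 11719 tested genes. Among all tested genes, 0.529% were called, with 0.469% higher and 0.0597% lower in GFP-HI. An unadjusted p under 0.05 was reached by 2 of the 7, Krt5 and Krt15, against 7.24% of all tested genes. The ranges of the 2 fractions overlapped for all 7 genes, as they did for all but 0.196% of tested genes. All 7 had enough counts to be tested. In bulk RNA from pooled cells, fewer cells of a type and less RNA per cell cannot be told apart.

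Krt5, the type II chain of the basal layer, had 5630, 5699, 5962, 4350, 4363 and 5159 CPM in GFP-HI (B1M, B3M, B4M, B5M, B7F and B7M). In GFP-LO, with the mice in the same sequence, it had 6644, 5870, 6848, 4711, 4760 and 6130 CPM. It was lower in GFP-HI in 6 of 6 mice, by 0.04 to 0.25 on the log2 scale, while B5M and B7F had the lowest level in both fractions. The log2 fold change was −0.16 ± 0.05 SE (edgeR adjusted p = 0.42). Of all tested genes 2.6% were lower and 3.34% higher in GFP-HI in all 6 mice. The difference kept its sign with each mouse left out, at −0.14 to −0.18.

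Krt14, the type I chain that pairs with Krt5, had 9520, 13499, 13699, 8300, 6393 and 9775 CPM in GFP-HI (B1M, B3M, B4M, B5M, B7F and B7M). In GFP-LO it had 12165, 12128, 13069, 8495, 8912 and 11094 CPM. It was lower in GFP-HI in 4 mice and higher in B3M and B4M, and the largest gap was in B7F. Its log2 fold change was −0.14 ± 0.08 SE (edgeR adjusted p = 0.76), and without B7F it was −0.07. Krt14 exceeded Krt5 per kilobase of exon 2.56 ± 0.458 times in GFP-HI and 2.48 ± 0.130 times in GFP-LO (SD, n = 6 each). The ratio of the pair was higher in GFP-HI in 4 of 6 mice and ranged more widely there, at 1.93 to 3.13 against 2.38 to 2.73 in GFP-LO.

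Krt15, the alternative type I chain of basal cells, had 819, 482, 520, 507, 551 and 472 CPM in GFP-HI (B1M, B3M, B4M, B5M, B7F and B7M). In GFP-LO it had 733, 267, 419, 455, 614 and 315 CPM. It was higher in GFP-HI in 5 of 6 mice, most in B3M and B7M, and lower in B7F, the mouse of 71 days. The log2 fold change was 0.32 ± 0.11 SE, or 1.25-fold (edgeR adjusted p = 0.48). It ran from 0.21 without B3M to 0.41 without B7F. With no filter on low counts the same test gave adjusted p = 0.035, against 0.17 or higher under every other alternative.

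Set against Krt14 rather than against the whole library, Krt15 was higher in GFP-HI in all 6 mice. Per kilobase of exon it came to 8.30%, 3.45%, 3.66%, 5.89%, 8.32% and 4.66% of Krt14 in GFP-HI (B1M, B3M, B4M, B5M, B7F and B7M). In GFP-LO it came to 5.81%, 2.13%, 3.10%, 5.17%, 6.65% and 2.74%. Within mice this share was higher in GFP-HI by 0.46 ± 0.242 on the log2 scale (mean and SD, n = 6). Lower Krt14 in GFP-HI entered this share in 4 of 6 mice, least in B5M (log2 −0.03). In B7F both genes were lower in GFP-HI, with log2 −0.16 for Krt15 and −0.48 for Krt14. In B1M the values were 0.16 for Krt15 and −0.35 for Krt14, while in B3M and B4M Krt14 was higher in GFP-HI. Relative to Krt14, 6.11% of all tested genes were higher in GFP-HI in all 6 mice, and the ratio was looked at after the values were seen, so it is given without a test.

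Krt17, the keratin of appendages and injury, had 150, 198, 280, 401, 206 and 286 CPM in GFP-HI (B1M, B3M, B4M, B5M, B7F and B7M). In GFP-LO it had 178, 184, 222, 725, 516 and 259 CPM. It was lower in GFP-HI in 3 mice and higher in 3, and the GFP-LO libraries of B5M and B7F stood above all others. In the paired fit the change was −0.30 ± 0.20 SE on the log2 scale (edgeR adjusted p = 0.79), and −0.10 without B7F. The GFP-LO libraries of B5M and B7F also stood out beyond Krt17, each for a different keratin. Krt42, the nearest neighbour of Krt17 on the chromosome, had 969 counts in the GFP-LO library of B5M and at most 63 in any other library. Krt4, a keratin of the suprabasal layers of mucosal epithelium, had 1063 counts in the GFP-LO library of B7F and at most 197 in any other. The part of these libraries' makeup in the Krt17 values was not tested.

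**Figure D2:**
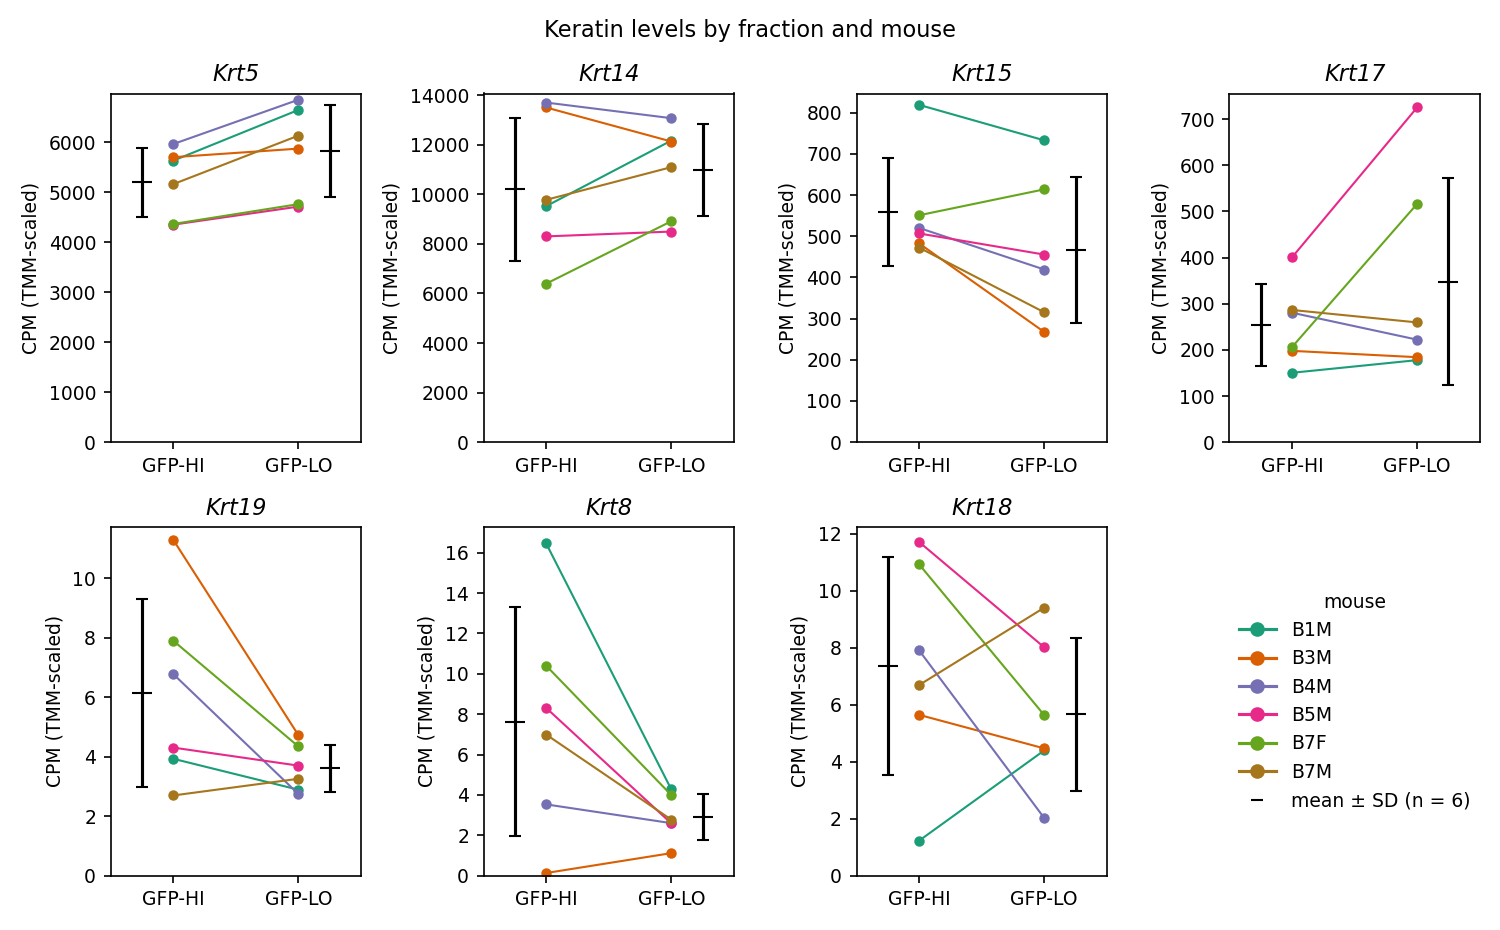
Level of each keratin in CPM (linear axes from 0) in GFP-HI and GFP-LO libraries, with a line for each of the 6 mice and the mean ± SD of each fraction in black. All 6 lines of Krt5 run upward from GFP-HI to GFP-LO, whereas the lines of Krt17 and Krt18 cross.

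The simple-epithelial keratins were present at low levels, with single-library counts of 1 to 134. Krt8, the type II chain, had 134, 1, 25, 83, 79 and 70 counts in GFP-HI (B1M, B3M, B4M, B5M, B7F and B7M), or 16.5, 0.131, 3.53, 8.31, 10.4 and 6.99 CPM. In GFP-LO it had 34, 13, 18, 21, 34 and 23 counts, or 4.27, 1.12, 2.60, 2.59, 3.99 and 2.77 CPM. Krt8 was higher in GFP-HI in 5 of 6 mice, and B3M went the other way, with the lowest level of each fraction. The single count in the GFP-HI library of B3M has an exact 95% Poisson interval of 0.00332 to 0.732 CPM, which covers counting error only.

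The log2 fold change of Krt8 was 0.99 ± 0.50 SE, or 1.99-fold (edgeR adjusted p = 0.72). Without B3M it was 1.38 with adjusted p = 0.22. B1M and B3M, the mice whose GFP-HI libraries detected the fewest genes, were also left out together. With both left out edgeR called 117 genes higher and 34 lower, against 55 and 7 with all 6 mice. Krt8 passed in that fit (1.24 ± 0.31 SE, edgeR adjusted p = 0.036), from which the 1 mouse with lower Krt8 in GFP-HI was missing. The adjusted p over all other alternatives ran from 0.22 to 1.00.

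Krt18, the type I partner of Krt8, had 1.23, 5.65, 7.91, 11.7, 10.9 and 6.69 CPM in GFP-HI (B1M, B3M, B4M, B5M, B7F and B7M). In GFP-LO it had 4.40, 4.47, 2.02, 8.01, 5.63 and 9.41 CPM. Krt18 was higher in GFP-HI in 4 mice and lower in B1M and B7M. In B1M, where Krt8 was highest in GFP-HI, Krt18 was lowest, with 10 counts. Its log2 fold change was 0.28 ± 0.43 SE (edgeR adjusted p = 0.91), and −0.027 without B4M. Per kilobase of exon Krt18 was 0.0962 times Krt8 in the GFP-HI library of B1M (exact 95% counting interval 0.0451 to 0.183) and 1.23 to 2.89 times in those of B4M, B5M, B7F and B7M. In that of B3M the ratio rests on the single Krt8 count, and its interval runs from 9.43 to 2240 around 55.4. In GFP-LO the ratio was 1.00 to 5.16. The intervals do not cover the uncertainty from sequence that Krt8 shares with Krt8-ps, described above, which bears on every one of these ratios. The Pearson correlation of log2 CPM between Krt8 and Krt18 over the 12 libraries was −0.07, against 0.87 between Krt5 and Krt14. Both are descriptions over libraries that share mice, and the low counts of the simple pair add counting error to the first. Libraries at opposite extremes also entered the value for Krt8 and Krt18. Among GFP-HI, B1M had 134 Krt8 and 10 Krt18 counts, whereas B3M had 1 Krt8 and 43 Krt18 counts. Fewer genes were detected in each of these libraries than in any other. The correlation without them was not tested, so the value does not show whether Krt8 and Krt18 varied together in the remaining libraries.

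Krt19 had 3.93, 11.3, 6.78, 4.31, 7.90 and 2.70 CPM in GFP-HI (B1M, B3M, B4M, B5M, B7F and B7M), from 27 to 86 counts. In GFP-LO it had 2.89, 4.72, 2.75, 3.70, 4.34 and 3.26 CPM, from 19 to 55 counts. It was higher in GFP-HI in 5 of 6 mice, B7M being the exception. The log2 fold change was 0.64 ± 0.38 SE (edgeR adjusted p = 0.77), and 0.51 to 0.82 with each mouse left out.

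**Figure D3:**
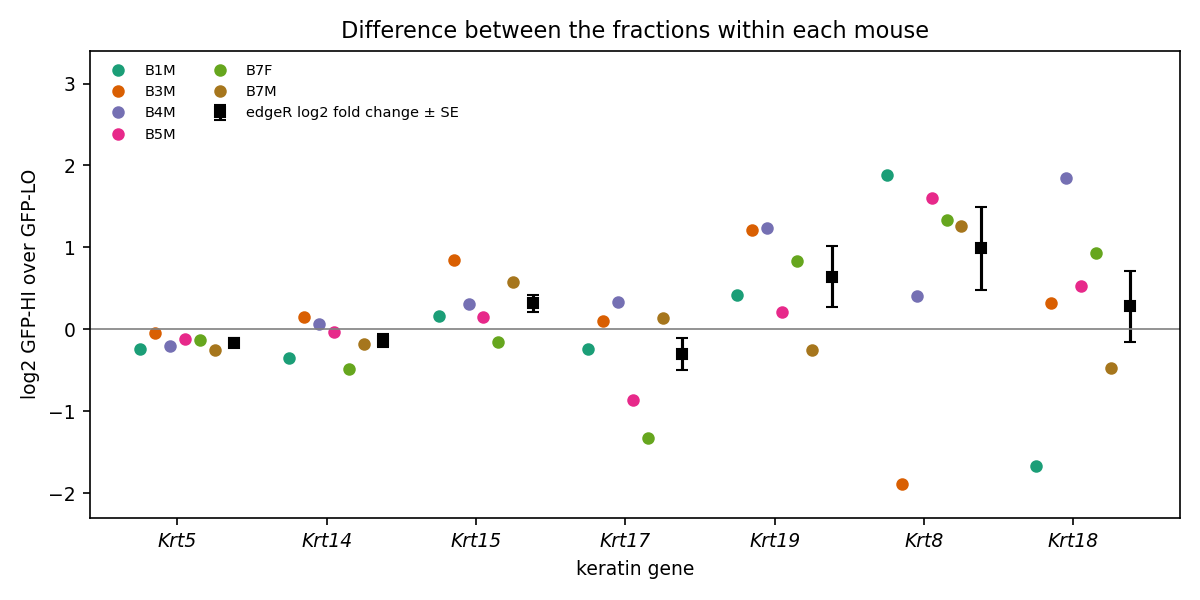
Log2 ratio of GFP-HI over GFP-LO within each mouse for the 7 keratins (coloured points, 6 mice), with edgeR's log2 fold change ± SE as black squares. The points of Krt5 lie between −0.25 and −0.04, and those of Krt8 spread from −1.88 to 1.89.

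Counted together, Krt8, Krt18 and Krt19 took 13.4, 8.58, 8.90, 17.9, 25.3 and 10.4 of every 10000 counts of the 7 genes in GFP-HI (B1M, B3M, B4M, B5M, B7F and B7M). In GFP-LO they took 5.86, 5.58, 3.58, 9.93, 9.43 and 8.67. The share was higher in GFP-HI in 6 of 6 mice, although in B1M, B3M and B7M at least 1 of the 3 genes had a lower level there. Relative to the same summed counts, which are mostly those of Krt14 and Krt5, 7.58% of all tested genes were higher in GFP-HI in all 6 mice. The sum was formed with the values known, and it is given without a test. Krt5 and Krt14 made up 66.3% ± 4.56 of all keratin counts in GFP-HI cells, against 69.6% ± 4.84 in GFP-LO cells (SD, n = 6 each), a share that was higher in GFP-HI in 1 mouse, B5M.

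**Figure D4:**
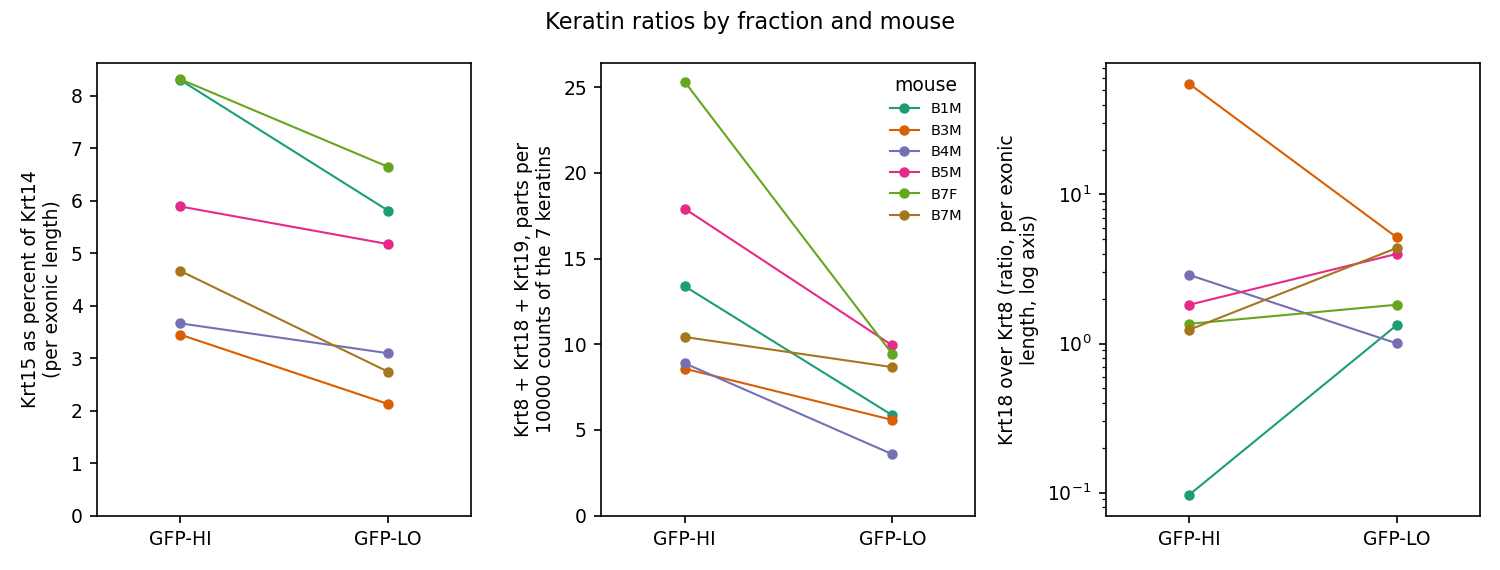
Ratios between the keratins in GFP-HI and GFP-LO, with a line per mouse (6 mice): Krt15 as a percent of Krt14 per exonic length, Krt8, Krt18 and Krt19 as parts per 10000 counts of the 7 keratins, and Krt18 over Krt8 per exonic length on a log axis. All 6 lines are higher in GFP-HI in the first panel and in the second, while those of the third cross, and its highest point, B3M in GFP-HI, rests on a single Krt8 count.

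Other cell types that carry simple keratins were looked for through their markers. Of 11 Merkel cell markers 3 were high enough to be tested and 0 were called: Isl1 (log2 0.38), Piezo2 (−0.89) and Insm1 (−0.18; edgeR adjusted p 0.80 to 0.98). Their summed level was 13.1 to 20.4 CPM across GFP-HI, against 8.76 to 23.5 CPM across GFP-LO, most of it Isl1. Counts of Krt20, the keratin that defines Merkel cells, did not exceed 3, nor those of Atoh1, their master regulator, 7. Syp, a synaptic vesicle protein, had 69 counts in the GFP-HI library of B1M, the library with the most Krt8, and at most 5 elsewhere. That library held counts of 3 of the 11 markers, Isl1 among them with 68. Krt20, Atoh1, Piezo2 and Insm1 had 0 counts there. The same library detected the fewest genes of all (12312). The endothelial marker Pecam1 and the taste bud marker Tas1r2 also had 0 counts there, so absence cannot be read from these values.

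Taste bud markers summed to 8.27 to 20.5 CPM across GFP-HI, against 7.16 to 16.0 CPM across GFP-LO. Of the 12, Car4 was at 0 and Gnat3 had at most 2 counts, and the 4 tested genes Tas1r2 (0.33), Tas1r3 (0.34), Entpd2 (0.14) and Pou2f3 (log2 −0.83) were not called (edgeR adjusted p 0.87 to 0.95). Salivary and ductal markers summed to 18.2 to 150 CPM across GFP-HI, against 32.6 to 67.0 CPM across GFP-LO. The mucin Muc5b had 549 and 434 counts in the GFP-HI libraries of B7F and B7M and at most 8 in any other library. With counts in so few libraries it did not pass the filter and was not tested. The summed share of Krt8, Krt18 and Krt19 was the largest of all libraries in the GFP-HI library of B7F, while in that of B7M it was lower than in those of B1M and B5M, which had 0 and 8 Muc5b counts. The 3 tested genes of that list were not called, namely Muc19 (0.52), Epcam (−0.27) and Cldn7 (log2 −0.58; edgeR adjusted p 0.83 to 0.91). The median log2 fold change of the tested genes was −0.18 for Merkel, 0.24 for taste bud and −0.27 for salivary and ductal markers, beside −0.02 over all tested genes. The part of such cells in the levels of Krt8, Krt18 and Krt19 was not tested.

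Markers of cells outside the epithelium, apart from Dcn, were at low levels. Immune markers summed to 0.246 to 18.2 CPM across GFP-HI, against 0.251 to 28.0 CPM across GFP-LO, the highest values being those of B5M and B7F in both fractions. Of their 9 genes the 1 tested, Cd74, was not called (log2 −0.60, edgeR adjusted p = 0.81). Endothelial markers stayed at or below 5.81 CPM across GFP-HI, against 2.70 CPM across GFP-LO, with Emcn at 0. Their 1 tested gene, Pecam1, had log2 0.67, and the melanocyte markers Mitf and Pmel had log2 0.77 and −0.24 (edgeR adjusted p = 0.87, 0.72 and 0.92). Melanocyte markers summed to 8.91 to 18.2 CPM across GFP-HI, against 7.13 to 11.5 CPM across GFP-LO. Of 8 fibroblast markers, 1 of the 4 tested was called, the proteoglycan gene Dcn, as lower in GFP-HI (log2 −0.49, edgeR adjusted p = 0.0031). It held most of that list's 262 to 488 CPM across GFP-HI, against 359 to 627 CPM across GFP-LO, while Col3a1 had at most 9 counts. The others tested were Col1a1 (log2 1.55), Col1a2 (1.11) and Fbn1 (0.91; edgeR adjusted p 0.48 to 0.82).

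Suprabasal markers were present in both fractions, at 1552 to 4234 CPM across GFP-HI, against 1632 to 3010 CPM across GFP-LO. None of their 8 tested genes was called, and the median log2 fold change was 0.04. The highest sum was in the GFP-HI library of B4M, where Krt14 was highest too. Krt13, a keratin of suprabasal oral epithelium, had log2 0.42 and Krt10, its counterpart in cornified layers, 0.71, while Krt76, a keratin of palate, had −0.18 and Krt4 −0.58 (edgeR adjusted p 0.65 to 0.86).

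Of the 45 other keratin genes 13 were tested, and 0 were called. They went in both directions, 7 with a positive and 6 with a negative log2 fold change, with a median of 0.06 beside −0.02 over all tested genes. The most abundant per kilobase was Krt6a, at 1429 CPM per kb in GFP-HI and 1342 CPM per kb in GFP-LO, and the next 5 were Krt76, Krt13, Krt24, Krt6b and Krt16. Krt6a, Krt6b and Krt16, which with Krt17 are the keratins of stressed epithelium, had log2 fold changes of 0.06, 0.16 and −0.08, and Krt24 had 0.17 (edgeR adjusted p 0.78 to 0.92). Krt42 had the smallest p of the list and was lower in GFP-HI in 6 of 6 mice (log2 −1.52 ± 0.46 SE, edgeR adjusted p = 0.34), with the high library of B5M named above. Krt9, a keratin of palm and sole skin, had log2 −1.23 (adjusted p = 0.77).

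Genes that hold keratin filaments in place passed no test between the fractions. Of 10 tested linkers 0 were called, 8 had a negative value and the median was −0.06. Among all 11719 tested genes 6218 had a negative value, with a median of −0.02. Eppk1, which binds keratin bundles, had log2 0.18, the desmosomal genes Ppl and Pkp1 −0.22 and −0.09, and Dst, at the hemidesmosome, −0.10 (edgeR adjusted p 0.64 to 0.80).

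The same held for regulators of keratin genes, where 0 of 17 tested genes were called. Of the 17, 12 had a negative value, and the median was −0.04 beside −0.02 over all tested genes. Ovol1, a repressor of basal genes in differentiating cells, had log2 −0.22 and was lower in 6 of 6 mice. Cebpb, a factor of keratinocyte differentiation, had 0.34, Stat3, which responds to cytokines, −0.19, and the barrier factor Grhl3 0.23 (edgeR adjusted p 0.69 to 0.85). Among 9 tested proteins that bind keratins 0 were called, with a median of 0.05. The 14-3-3 genes Ywhae, Sfn and Ywhaz had −0.14, −0.18 and −0.08 and the small heat shock gene Hspb1 0.06 (edgeR adjusted p 0.68 to 0.91). Sfn, whose protein binds Krt17, was at 535 ± 200 CPM in GFP-HI cells, against 588 ± 133 CPM in GFP-LO cells (SD, n = 6 each).

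The genes most like each keratin across the 12 libraries were found by Pearson's r of log2 CPM, as a description over libraries that share mice and depth. For Krt5 they were Calml3 (r = 0.91), 2010003O02Rik (0.91) and Lad1 (0.90), and for Krt14 2010003O02Rik (0.93), Hcfc2 (0.90) and Thop1 (0.89). Calml3, a calmodulin-like gene, and Lad1, an anchoring filament protein of the basement membrane, had log2 fold changes of −0.47 and −0.36 (edgeR adjusted p = 0.027 and 0.079). For Krt15 they were Pls3 (0.94), Ctgf (0.89) and B230118H07Rik (0.88), of which Ctgf, a matricellular target of YAP, was called higher in GFP-HI (log2 0.75, edgeR adjusted p = 0.0070). For Krt17 they were Aebp2 (0.86), Scd1 (0.84) and Notch2 (0.84). For the simple-epithelial genes the closest were Rgs16 for Krt8 (0.96), Gm16197 for Krt18 (0.90) and Snx15 for Krt19 (0.88). The next were Trp53bp2 and Fsd1l for Krt8 (0.94 and 0.93), Yod1 and Bcl2l11 for Krt18 (0.88 each), and Gins2 and Ado for Krt19 (0.88 each). All were picked as the 3 highest among all tested genes, so high values come in part from that choice. Rgs16, Fsd1l, Gm16197, Gins2 and 2010003O02Rik averaged only 2.32 to 3.47 CPM. By ranks the correlation of Gins2 with Krt19 was lower (Spearman's rho 0.60).

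The promoter table from RefSeq (GRCm38.p6, the files' build) held start sites at or within 14 bases of the annotated starts of Krt5, Krt8 and Krt18. Its Krt14 entry starts 1480 bases inside the gene and was not used, and Krt15, Krt17 and Krt19 have no entry. The 3 windows run from 150 bases before to 10 bases from the start, and they are shown because they include both genes of the simple pair, Krt8 and Krt18. Krt5 is shown beside them as the basal gene after which the promoter of the reporter system is named. Capitals mark TATAA or ATAAA and their complements TTATA or TTTAT, and overlapping matches run together; these motifs, which resemble the TATA box, were chosen after the windows had been read.
Krt5, chr15:101712896-101713055, minus strand: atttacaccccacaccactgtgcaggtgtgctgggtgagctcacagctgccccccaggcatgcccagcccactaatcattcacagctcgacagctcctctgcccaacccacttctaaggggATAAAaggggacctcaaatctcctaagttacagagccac
Krt8, chr15:102004333-102004492, minus strand: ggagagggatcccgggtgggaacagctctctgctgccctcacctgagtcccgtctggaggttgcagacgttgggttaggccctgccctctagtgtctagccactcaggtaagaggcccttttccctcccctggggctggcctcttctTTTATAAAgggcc
Krt18, chr15:102028066-102028225, plus strand: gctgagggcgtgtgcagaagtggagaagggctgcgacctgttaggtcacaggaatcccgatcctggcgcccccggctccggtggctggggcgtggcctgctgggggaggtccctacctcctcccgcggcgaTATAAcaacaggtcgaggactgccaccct
Each window holds such a match, at −29 bases in Krt5, from −3 in Krt8, across the annotated start, and at −19 in Krt18. Of 32851 promoter windows of the same length 29.7% hold at least 1 on either strand. The GC content was 55.6% in Krt5, 60.6% in Krt8 and 66.9% in Krt18, beside a median of 53.8% over all windows. A match describes these letters of the reference strain and is not a measured site.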

How the data were processed

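RNA-seq libraries of GFP-HI and GFP-LO palatal basal cells from 6 mice were compared. The deposited values are counts of reads over annotated exons per gene, not normalised. Tools listed in the submitters' processing notes are featureCounts, DESeq2, R 3.4.1, FastQC and bcl2fastq 2.20.0, with mm10 and GRCm38 as builds. Aligner, strand setting and annotation release: not given in the sources used here. Every count column matched 1 library by name. The keratins, the gene lists and the tests were chosen with earlier results of these data known.

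The test was fitted with edgeR 4.0.16 (R 4.3.3) on these counts: filtering by group (minimum count 10, minimum total 15), TMM scaling, robust quasi-likelihood test, mouse as block, two-sided, Benjamini-Hochberg over 11719 genes, threshold 0.05. Log2 differences within mice and correlations used log2 CPM with a prior count of 2. DESeq2 1.42.0 was an alternative, as were other scalings, no filter, no Rn45s and mice left out. Pairing comes from the animal codes in the titles, and the design text names 6 matched samples; deviations from group means correlated within mice at 0.23 to 0.49, against at most 0.26 between mice. The fit was tested on simulated data with known changes. In each list the genes named are up to 4 with the smallest p, in other keratins also the 6 most abundant per length, and for each keratin the 3 most correlated genes; Syp, Muc5b, Krt20, Atoh1, Gnat3, Car4, Emcn and Col3a1 were named after their values were seen. A symbol without a row, Flg, was left out. Intervals cover counting error only, since amplified reads are not independent molecules. One shared coding stretch is not reported here.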

Additional observations from a re-analysis of the deposited data

Results flagged for a closer look

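In the GFP-HI group, the Krt15 level of B1M, 819 CPM, lay far above the other 5 libraries, which spanned 472 to 551 CPM. The same mouse had the highest Krt15 level in GFP-LO, 733 CPM, beside 614 CPM or less in the other 5, and was not set apart there by the same measure. This was the 1 case among 21 sets of 6 values looked at (each keratin in each fraction and as a difference within mice), and chance gives about 1 in 20.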

How the results depend on the processing

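The comparison was paired by mouse. Without the replicate block edgeR called 0 genes higher and 0 lower, with 440 at an unadjusted p under 0.05, in place of 55 higher and 7 lower. DESeq2 called 109 higher and 25 lower. With no filter on low counts edgeR called 127 higher and 45 lower, and Krt15 passed there, with a log2 fold change of 0.30. With B1M and B3M both left out it called 117 higher and 34 lower, and Krt8 passed, with a log2 fold change of 1.24; the cause was not tested. Leaving out 1 mouse at a time gave 29 (B3M) to 81 (B1M) genes higher and 2 (B4M) to 14 (B1M) lower. In those fits the log2 fold change ran from −0.19 to −0.07 for Krt14, −0.44 to −0.10 for Krt17 and 0.81 to 1.38 for Krt8. That of Krt18 was −0.027 without B4M, where its sign turned, and up to 0.61 without B1M. No other alternative changed the sign or the call of any of the 7 keratins. Without the replicate block, where 0 genes were called, the unchanged calls of the keratins carry no information. There the unadjusted edgeR p was 0.25 for Krt5 and 0.26 for Krt15, against 0.0082 and 0.011 with the block. The other scalings and the removal of Rn45s gave 48 to 55 genes higher and 6 to 7 lower. A gene with no counts could have had up to 3, or 0.258 to 0.433 CPM, and the Krt8 level of B3M in GFP-HI, 0.131 CPM, lies under that limit.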
